A study of Mus musculus with 6 samples.

Results

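Serotonin (5-hydroxytryptamine, 5-HT) receptors were examined in the hippocampus of mice that express the BRAF Q241R kinase in mature excitatory neurons. The set was defined by gene symbol, as 10 named serotonin receptor genes. Of these, 9 had a row among the 20620 genes of the table and all 9 were among the 20604 genes tested, while Htr1d had no row and was not analysed here. Htr5b and Htr2c had been picked because they differed in opposite directions between the groups, and their group values are therefore given as a description, without a test. Both groups were adult males on a C57BL/6J background with the Q241R substitution in 1 of their Braf alleles, a model of cardio-facio-cutaneous syndrome. The n-Braf mice (Braf Q241R/+ ;CaMKII-Cre, n = 3, 33, 32 and 34 weeks old) also carry a CaMKII-Cre transgene, whose promoter is active in forebrain excitatory neurons. The control mice (Braf Q241R Neo/+, n = 3, 32, 32 and 31 weeks old) have no Cre in their genotype and are labelled with Neo, a selection cassette, in the mutant allele. Cre, the cassette and expression of the mutant kinase cannot be told apart in this design, and wild-type mice were not analysed here. Each library came from the bulk hippocampal RNA of 1 numbered mouse.

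Serotonin is made by neurons of the brainstem raphe nuclei, whose axons reach the hippocampus. All serotonin receptors but one class are G protein-coupled. The 5-HT1 receptors couple to Gi/o and lower cyclic AMP, the 5-HT2 receptors couple to Gq and phospholipase C, and the 5-HT4, 5-HT6 and 5-HT7 receptors couple to Gs and raise cyclic AMP. The 5-HT3 receptor is a cation channel. In the hippocampus 5-HT1A is abundant on pyramidal and granule neurons, and 5-HT3A marks a class of GABAergic interneurons. 5-HT2C is also one of the most abundant receptors of the choroid plexus, the epithelium of the brain ventricles that secretes cerebrospinal fluid. Htr5b encodes a receptor in rodents, whereas the human gene is a pseudogene.

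Libraries held between 30152839 and 31832245 assigned counts in n-Braf and between 25227112 and 27608256 in the controls. Braf, the targeted gene, was at 185, 184 and 205 CPM in n-Braf, against 116, 123 and 116 CPM in the controls, where CPM is the count scaled to a common library total, with library sizes adjusted by edgeR's trimmed-mean method (TMM). Markers of hippocampal neurons were present in every library, with Camk2a between 2146 and 2904 CPM in n-Braf and between 2120 and 2325 CPM in the controls. Controls 1 and 2 stood apart from the other 4 libraries in markers of choroid plexus. The summed level of the 15 measured markers was 128, 137 and 114.5 CPM in n-Braf 1, 2 and 3, against 3720, 2088 and 161 CPM in controls 1, 2 and 3. In n-Braf and control 3 the largest part of this sum was 1 gene, Enpp2. It was at 65.5, 68.95 and 76.7 CPM in n-Braf, against 1145, 657 and 101 CPM in the controls. The log2 fold change of Htr2c is therefore given with and without controls 1 and 2, and its level per length also for control 3 alone.

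Htr5b and Htr5a encode the members of the 5-HT5 class, and in Htr5b alone of the set the groups did not overlap. A stretch of each coding sequence is shown because reads from these sequences can be assigned to either gene only where they differ. The coding sequences of the GENCODE M21 transcripts held 1113 bases in Htr5b and 1074 bases in Htr5a, and 70.9% of their 1068 aligned positions were identical. The longest run of identical bases was 15. The stretches below, read 5′ to 3′ along the coding strand from exon 1 of each gene, surround that run, and capitals mark the 16 bases of 75 that differ between them. On GRCm38 the Htr5b stretch lies at chr1:121527679-121527753 on the minus strand and the Htr5a stretch at chr5:27842846-27842920 on the plus strand.
Htr5b: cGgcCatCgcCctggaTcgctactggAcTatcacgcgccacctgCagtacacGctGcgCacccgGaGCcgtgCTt
Htr5a: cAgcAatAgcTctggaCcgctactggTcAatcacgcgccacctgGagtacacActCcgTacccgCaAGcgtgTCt
The expected counts of both genes were whole numbers in all 6 libraries, as they were for 8 of the 9 receptor genes, and Htr1b alone had fractional counts.

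Htr5b was the receptor gene with the clearest separation between groups. The gene (ENSMUSG00000050534) has 1935 exonic bases on the minus strand of chromosome 1, between 121509842 and 121528465. It had 110, 105 and 101 counts in n-Braf 1, 2 and 3, against 43, 44 and 52 counts in controls 1, 2 and 3. Scaled to library size these were 3.44, 3.30 and 3.44 CPM in n-Braf, against 1.60, 1.65 and 2.02 CPM in the controls. All 3 n-Braf libraries lay above all 3 controls, and they lay closer together than the controls did. At 43 to 110 counts per library nothing is read from that closeness. The n-Braf mean was 3.395 ± 0.0787 CPM and the control mean 1.76 ± 0.232 CPM (SD over 3 libraries). The fold of n-Braf over control was 1.93 (log2 fold change 0.95, SE 0.19). Of all genes tested, 11.5% had groups that did not overlap, 6.09% with n-Braf higher and 5.44% with n-Braf lower. Htr5b was the 1 member of 9 without overlap. Because the gene was chosen for this difference, nothing is read from that count.

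Ratios to other receptor genes need no scaling of the libraries, but they use the same Htr5b counts by which the gene was picked and are given as a description. The ratio of Htr5b to Htr5a counts was 0.268, 0.251 and 0.356 in n-Braf, against 0.160, 0.165 and 0.182 in the controls. Against Htr1a it was 0.1996, 0.178 and 0.215 in n-Braf, against 0.0894, 0.0813 and 0.103 in the controls. The n-Braf libraries lay above the controls in both ratios, and nothing is read from this. Htr5b made up 3.13%, 2.72% and 3.59% of the counts of all 12 measured serotonin receptor genes in n-Braf, against 1.12%, 1.25% and 1.92% in the controls. That total includes Htr2c, which made up 24.8%, 30.5% and 22.9% of it in n-Braf, against 47.3%, 38.5% and 25.0% in controls 1, 2 and 3. The high Htr2c of controls 1 and 2 therefore lowers their Htr5b share. Control 3, the control with few choroid plexus transcripts, had the highest Htr5b level of the controls. Without controls 1 and 2 the log2 fold change of Htr5b was 0.74 (SE 0.27), and adding the choroid plexus marker mean to the fit gave 0.72 (SE 0.29). The first fit keeps 1 control and takes its spread from the n-Braf libraries. Both fits lean on control 3, so nothing is read from the likeness of these values.

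Htr2c went the other way on average, but the groups overlapped. The gene (ENSMUSG00000041380) lies on the X chromosome at 146962513 to 147197277, on the plus strand. It had 870, 1177 and 645 counts in n-Braf 1, 2 and 3, against 1821, 1356 and 677 counts in controls 1, 2 and 3. The levels were 27.2, 37.0 and 22.0 CPM in n-Braf, against 67.9, 50.7 and 26.4 CPM in the controls. Controls 1 and 2 were high, while control 3 lay below n-Braf 1 and n-Braf 2. The n-Braf mean was 28.7 ± 7.65 CPM and the control mean 48.3 ± 20.9 CPM (SD over 3 libraries), a ratio of 0.595 (log2 fold change -0.75, SE 0.30). In whole tissue fewer cells of a type and less RNA per cell cannot be told apart.

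The 2 controls high in Htr2c were the 2 that were high in choroid plexus markers. Ttr, which encodes the thyroid hormone carrier transthyretin and is the most abundant of these markers in controls 1 and 2, was at 3.32, 12.9 and 1.05 CPM in n-Braf, against 2036, 1121 and 13.8 CPM in the controls. Folr1, a folate receptor of the same epithelium, was at 0.219, 0.0944 and 0.306 CPM in n-Braf, against 20.1, 12.1 and 0.428 CPM in the controls. Each of the 15 measured choroid plexus markers had a lower mean in n-Braf. Their median log2 fold change was -3.41, against -0.0042 over all genes tested, and 0 of them had a library at 0 counts. Without controls 1 and 2 the log2 fold change of Htr2c was 0.13 (SE 0.25), and in a fit with the mean level of these markers as a covariate 0.26 (SE 0.21). Both estimates have the opposite sign to that from all 6 libraries. They are not separate support, since control 3 was the only control with marker levels near those of n-Braf, and both lean on it. Leaving out controls 1 and 2 leaves 1 control, whose spread is taken to be that of the n-Braf libraries. The ratio of Htr2c to Htr1a counts was 1.58, 1.99 and 1.37 in n-Braf, against 3.79, 2.51 and 1.34 in the controls.

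**Figure D1:**
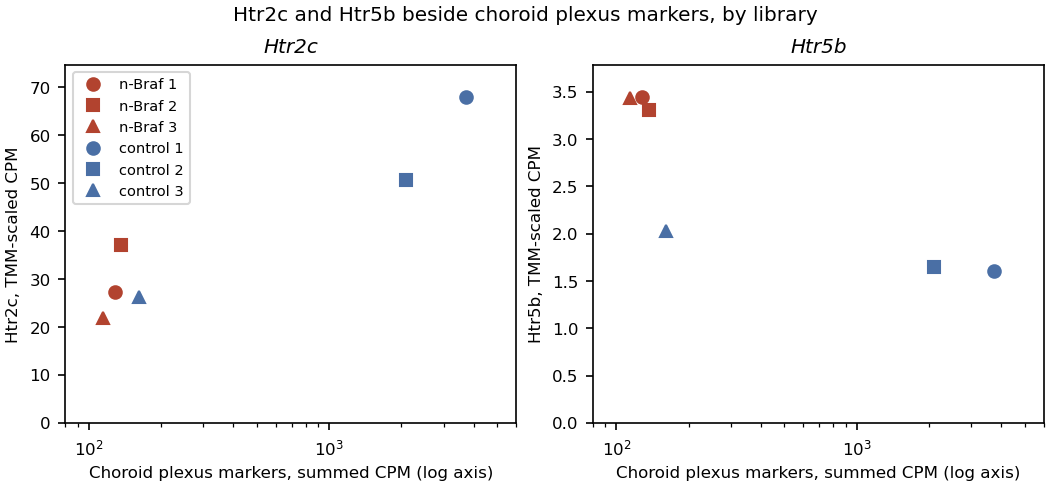
Htr2c (left) and Htr5b (right) in TMM-scaled CPM on the vertical axis against the summed CPM of 15 choroid plexus markers on a logarithmic horizontal axis, with 1 point for each of the 6 libraries. Controls 1 and 2 stand to the right at 3720 and 2088 CPM of markers, and Htr2c is highest in them, while control 3 lies among the n-Braf libraries for Htr2c and below all of them for Htr5b.

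Htr2c transcripts are known to be recoded by A-to-I RNA editing, made by the ADAR enzymes at sites in a short coding stretch, which alters the coupling of the receptor to its G protein. The stretch is shown because counts per gene add edited and unedited transcripts together. It lies in exon 5 of the reference transcript at chrX:147169662-147169730 on the plus strand of GRCm38, read 5′ to 3′, and capitals mark the 5 codons that span the edited sites.
Htr2c: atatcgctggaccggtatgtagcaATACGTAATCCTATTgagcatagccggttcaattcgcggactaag
Adar averaged 146 ± 8.70 CPM in n-Braf, against 136 ± 2.93 CPM in the controls (mean ± SD, n = 3 each). Adarb1, another active editing enzyme, averaged 156 ± 9.68 CPM in n-Braf, against 147 ± 10.2 CPM in the controls (mean ± SD, n = 3 each). Neither passed the test, with edgeR adjusted p-values of 0.842 for Adar and 0.899 for Adarb1. Editing itself was not analysed here.

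The other 7 receptor genes differed by less than these. They had between 84 and 591 counts per library. Htr1b and Htr3a lie on chromosome 9, Htr1a on 13, Htr2a on 14, Htr4 on 18, Htr5a on 5 and Htr7 on 19. Each was tested within a fit of edgeR's quasi-likelihood model to all genes, with Benjamini-Hochberg adjustment. At an adjusted p of 0.05 the test called 0 of these 7 genes, and it called 0.0% of all genes tested. At an unadjusted p of 0.05 it also called 0 of the 7, against 6.82% of all genes. DESeq2, edgeR's exact test and robust quasi-likelihood, which called 0.383%, 0.32% and 0.0243% of all genes, called 0 of the 7 as well. The 7 genes had a median log2 fold change of 0.035, with 4 above 0 and 3 below, and in all 7 the groups overlapped. Ages differed between the groups, and with age in the fit the log2 fold change was 0.46 for Htr5a (SE 0.16), 0.68 for Htr7 (SE 0.33), -0.28 for Htr4 (SE 0.23) and -0.037 for Htr1a (SE 0.13).

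**Figure D2:**
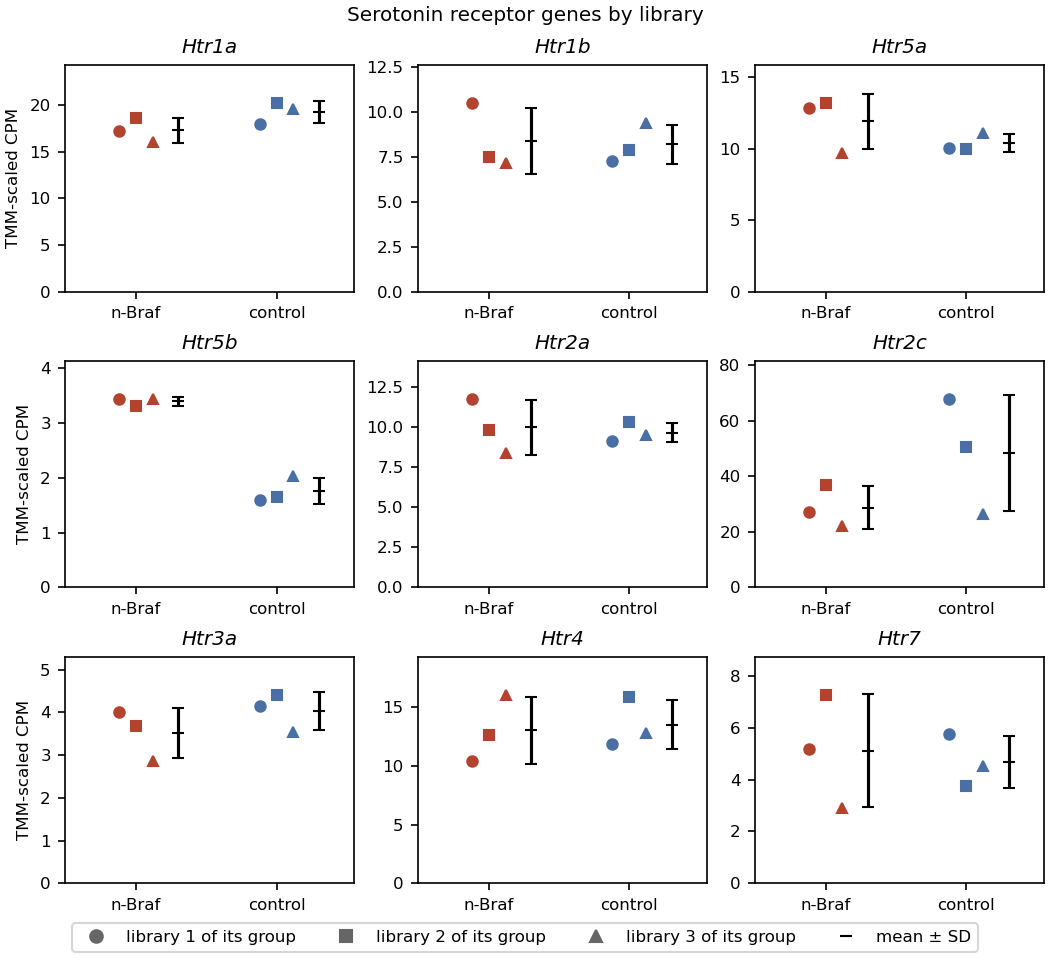
TMM-scaled CPM of the 9 receptor genes (vertical axes from 0, 1 panel each) in the n-Braf and control libraries, with 1 marker for each library and the mean ± SD (n = 3) in black. Htr5b is the panel in which the groups do not overlap, and in the Htr2c panel controls 1 and 2 stand above the other 4 libraries.

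Among the Gi/o-coupled receptors, Htr1a was at 17.2, 18.6 and 16.0 CPM in n-Braf, against 17.9, 20.2 and 19.6 CPM in the controls. It encodes the inhibitory receptor through which serotonin hyperpolarises pyramidal neurons. The log2 fold change was -0.16 with a 95% interval of -0.38 to 0.063 (edgeR adjusted p = 0.832), and n-Braf 2 lay above control 1. Htr1b, which encodes a receptor of axon terminals, was at 10.5, 7.49 and 7.15 CPM in n-Braf, against 7.27, 7.89 and 9.38 CPM in the controls. Its highest value was in n-Braf 1 and its lowest in n-Braf 3, so the spread within n-Braf covered the controls (log2 fold change 0.035, 95% interval -0.36 to 0.43, edgeR adjusted p = 0.991). Htr5a, the relative of Htr5b, was at 12.8, 13.2 and 9.67 CPM in n-Braf, against 10.0, 9.98 and 11.1 CPM in the controls. Here n-Braf 1 and 2 were above every control and n-Braf 3 was below them all (log2 fold change 0.20, 95% interval -0.11 to 0.51, edgeR adjusted p = 0.858).

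Of the Gq-coupled receptors, Htr2a was at 11.7, 9.82 and 8.34 CPM in n-Braf, against 9.10, 10.3 and 9.50 CPM in the controls. It encodes the cortical receptor on which hallucinogens act. All 3 controls lay within the range of n-Braf (log2 fold change 0.050, 95% interval -0.27 to 0.37, edgeR adjusted p = 0.984). Htr3a, the subunit that every 5-HT3 channel needs, was at 4.01, 3.68 and 2.86 CPM in n-Braf, against 4.14, 4.41 and 3.54 CPM in the controls. The lowest library was n-Braf 3 and the groups overlapped (log2 fold change -0.20, 95% interval -0.63 to 0.23, edgeR adjusted p = 0.914).

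Of the Gs-coupled receptors, Htr4 was at 10.4, 12.6 and 16.0 CPM in n-Braf, against 11.9, 15.9 and 12.8 CPM in the controls. Unlike most of the set it was highest in n-Braf 3 (log2 fold change -0.056, 95% interval -0.45 to 0.33, edgeR adjusted p = 0.986). Htr7, which encodes a receptor also expressed in thalamus, was at 5.20, 7.27 and 2.89 CPM in n-Braf, against 5.74, 3.74 and 4.52 CPM in the controls. It had the widest interval of the set, from -0.56 to 0.83 around a log2 fold change of 0.14 (edgeR adjusted p = 0.976). Both the highest and the lowest library were n-Braf libraries.

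**Figure D3:**
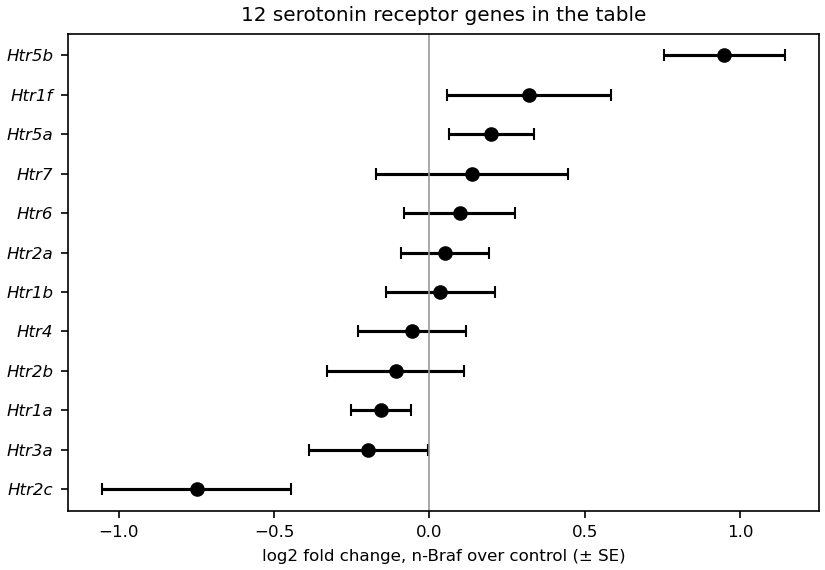
Log2 fold changes of n-Braf over control (horizontal axis) with their standard errors, for the 12 serotonin receptor genes in the table. Htr5b at 0.95 and Htr2c at -0.75 lie at the ends, and the other 10 lie between -0.20 and 0.32.

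The library n-Braf 3 departed from n-Braf 1 and 2 in most receptor genes. It had the lowest level of the 6 libraries in Htr1a, Htr1b, Htr2a, Htr2c, Htr3a, Htr5a and Htr7, and the highest in Htr4. Its markers of hippocampal regions differed too. Dentate granule markers summed to 465, 457 and 714 CPM in n-Braf 1, 2 and 3, against 559, 630 and 522 CPM in the controls. Markers of subiculum and neocortex, the tissue next to the hippocampus, summed to 863, 857 and 671 CPM in n-Braf, against 732, 594 and 818 CPM in the controls. The part that tissue composition plays in the receptor levels was not tested. Htr5b was at 3.44 CPM in n-Braf 3, but the gene was picked for its group difference, so nothing is read from this level. Without n-Braf 3 the log2 fold change of Htr5a was 0.32 and that of Htr7 was 0.41.

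The receptors were then ordered by level per kilobase of their longest protein-coding transcript. In n-Braf the order was Htr2c at 5.89 ± 1.57 CPM per kb, Htr1a at 3.85 ± 0.290, Htr4 at 2.79 ± 0.611, Htr5a at 2.21 ± 0.360, and then 5 genes between 1.66 and 1.78 CPM per kb (SD, n = 3). The ranges of Htr2c, Htr1a and Htr4 did not overlap with one another, while from Htr4 downwards each gene overlapped with its neighbour. In the controls the order began with Htr2c at 9.90 ± 4.28 CPM per kb, Htr1a at 4.30 ± 0.265 and Htr4 at 2.90 ± 0.454, and ended with Htr5b at 0.908 ± 0.120 CPM per kb. In control 3 alone Htr2c was at 5.40 CPM per kb, within the n-Braf range of 4.50 to 7.58. Of the 9 genes Htr5b was the lowest in the controls, whereas in n-Braf, at 1.76 ± 0.0407 CPM per kb, it lay within the range of Htr2a, Htr1b, Htr3a and Htr7. With the union of annotated exons as the length, which is 9328 bases for Htr2c in place of 4883, Htr1a at 3.85 CPM per kb came before Htr2c at 3.08 in n-Braf, while in the controls Htr2c at 5.18 stayed before Htr1a at 4.30. That control order rested on controls 1 and 2, since Htr2c in control 3 was at 2.83 CPM per kb of exons, below the Htr1a range of 4.001 to 4.512 in the controls.

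**Figure D4:**
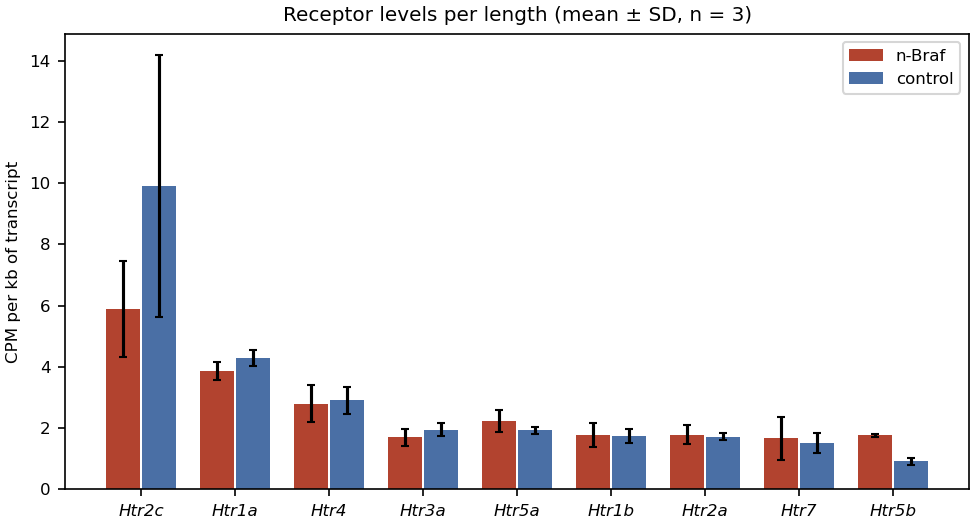
CPM per kilobase of the longest protein-coding transcript (vertical axis from 0) for the 9 receptor genes, as mean ± SD of 3 libraries, with n-Braf left of control for each gene. Htr2c and Htr1a have the highest bars in both groups, and Htr5b is the lowest control bar of the 9 at 0.908. The control bar of Htr2c includes controls 1 and 2.

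Other serotonin receptors in the table were Htr1f, Htr2b and Htr6, and none passed the test. Htr6, a Gs-coupled receptor, averaged 3.26 ± 0.277 CPM in n-Braf, against 3.05 ± 0.277 CPM in the controls (mean ± SD, n = 3 each). Htr1f, a Gi/o-coupled receptor, was at 2.72, 2.86 and 2.45 CPM in n-Braf, against 2.83, 1.42 and 2.18 CPM in the controls, with control 2 lowest. Htr2b averaged 1.85 ± 0.265 CPM in n-Braf, against 1.99 ± 0.188 CPM in the controls (mean ± SD, n = 3 each). Per kilobase of exons in the controls, Htr1f at 0.832 ± 0.274 and Htr2b at 0.934 ± 0.0881 CPM per kb lay near Htr5b at 0.908 ± 0.120 (SD, n = 3). Over the 12 measured serotonin receptor genes, 7 had a log2 fold change above 0 and 5 below, with a median of 0.043. Over all genes tested 49.0% were above 0.

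Genes that make, move and degrade serotonin were measured in 7 of 11 cases, and 0 passed the test. Tph2, the enzyme that commits tryptophan to serotonin in raphe neurons, had 14, 10 and 12 counts in n-Braf, against 11, 7 and 15 counts in the controls. Slc6a4, the serotonin transporter of the same neurons, had no row. Slc29a4, a low-affinity monoamine transporter also found in choroid plexus, was at 9.95, 11.6 and 13.4 CPM in n-Braf, against 20.5, 19.9 and 10.8 CPM in the controls. Controls 1 and 2 were the high libraries, as for Htr2c, and control 3 lay among the n-Braf libraries. Slc22a3, another transporter of this kind, was at 0.250, 0.126 and 0.272 CPM in n-Braf, against 0.597, 0.486 and 0.467 CPM in the controls. These rest on only 8, 4 and 8 counts in n-Braf, against 16, 13 and 12 counts in the controls. The groups did not overlap (log2 fold change -1.25, SE 0.45, edgeR adjusted p = 0.667). It was the 1 gene of these 7 without overlap, against 11.5% of all genes tested. Maoa and Maob, the enzymes that break serotonin down, differed by -0.050 (SE 0.09) and -0.25 (SE 0.15) on the log2 scale. The vesicular transporter Slc18a2 was at 0.099 (SE 0.15) and the decarboxylase Ddc at -0.030 (SE 0.23) on the same scale.

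Of 23 G proteins, cyclases and channels through which the receptors act, 19 had a log2 fold change above 0 and 4 below, with a median of 0.059, and 0 passed. Of all genes tested 49.0% were above 0, and several neuronal marker lists given below also had most members above 0. Gnaq, the alpha subunit that 5-HT2 receptors use, differed by 0.18 on the log2 scale (SE 0.08), and Rapgef4, a cyclic AMP sensor, by 0.16 (SE 0.07), with its n-Braf libraries above all controls. Gnai1 and Gnai2, alpha subunits that 5-HT1 receptors use, were at -0.046 (SE 0.07) and -0.042 (SE 0.07). Other Gi/o alpha subunits went both ways, with Gnai3 at -0.12 (SE 0.09), Gnaz at 0.092 (SE 0.08) and Gnao1 at 0.15 (SE 0.07). The n-Braf libraries of Gnao1 lay above all controls. Of the 23 genes, 2 had n-Braf above all controls, against 6.09% of all genes tested. Of 14 genes listed as partners, regulators or editing enzymes of the receptors, 10 were above 0 (median 0.056), and 0 passed. S100a10, whose product p11 is a partner of 5-HT1B and 5-HT4, differed by 0.16 on the log2 scale (SE 0.18), Arrb1 by 0.075 (SE 0.07) and the scaffold Dlg4 by 0.17 (SE 0.06). Fkbp5, also on the list, differed by 0.23 (SE 0.12), and no link of its product to these receptors is shown here.

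Markers of cells and neighbouring tissue known to hold these receptors were read beside Htr5b and Htr3a. The habenula, a small structure next to the hippocampus, is a known site of Htr5b. Of 10 habenula markers 4 had a row, all with a log2 fold change above 0 (median 0.35), and they summed to 66.9, 57.3 and 45.0 CPM in n-Braf, against 41.3, 46.1 and 46.6 CPM in the controls, so that the groups overlapped. Most of this sum was 1 gene, Nwd2, at 60.8, 50.2 and 39.9 CPM in n-Braf, against 36.9, 41.2 and 42.2 CPM in the controls, while each of the other 3 markers was below 4 CPM in every library. Gpr151, a receptor gene expressed mainly in the habenula, was at 1.31, 1.82 and 1.46 CPM in n-Braf, against 1.79, 1.38 and 0.740 CPM in the controls, while Pou4f1 and Chrnb4 had no row. Of 12 markers of CA1 pyramidal neurons 10 were above 0 (median 0.18), against 49.0% of all genes tested. Their summed level was 659 to 713 CPM in n-Braf, against 584 to 631 CPM in the controls. By gene, 1 had all n-Braf libraries above all controls, Ndst3 at 0.29 (SE 0.06), and 1 had them below, Dcn at -0.70 (SE 0.27). The part of habenula and CA1 tissue in the difference of Htr5b was not tested. The 12 markers of interneurons of the Htr3a-expressing kind had 6 members above 0 and 6 below (median 0.00040), with log2 fold changes of 0.28 (SE 0.20) for Vip, 0.58 (SE 0.18) for Npy and 0.20 (SE 0.08) for Cck. Among the members below 0, chosen after their values were seen, were Sncg at -0.47 (SE 0.26) and Calb2 at -0.15 (SE 0.16). Htr3a was at -0.20 on the same scale.

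The remaining marker lists gave the following medians of the log2 fold change, and 0 members passed in any of them. Ependymal markers, of the cells that line the ventricles, all had a log2 fold change below 0 (8 of 8, median -1.16), and myelin markers did too (10 of 10, median -0.31). Myelin markers summed to 1507, 1526 and 2055 CPM in n-Braf, against 2084, 1785 and 2285 CPM in the controls, so that the groups overlapped. In 2 of the 10 myelin genes all n-Braf libraries lay below all controls. Ependymal markers summed to 29.7, 24.2 and 26.2 CPM in n-Braf, against 65.0, 56.5 and 34.2 CPM in the controls. In this sum controls 1 and 2 were again the 2 highest libraries and control 3 lay nearer to n-Braf. By gene, 5 of the 8 had all n-Braf libraries below all controls, against 5.44% of all genes tested. Foxj1 was at 5.18, 4.34 and 1.99 CPM in controls 1, 2 and 3, against 1.35, 1.57 and 1.84 CPM in n-Braf. Ccdc153 was as high in control 3, at 2.91, 2.73 and 3.04 CPM in the controls, against 1.47, 0.598 and 1.33 CPM in n-Braf. The part of ependymal cells in the level of Htr2c was not tested. Dentate granule markers had a median of -0.16 (7 of 9 lower), markers of CA2 and CA3 of -0.11 (7 of 10 lower) and thalamic markers of -0.072 (5 of 10 lower). Markers of subiculum and neocortex had a median of 0.16 (13 of 14 higher), other interneuron markers of 0.088 (6 of 6 higher), raphe markers of 0.099 (2 of 3 higher) and general hippocampal neuron genes of 0.12 (5 of 7 higher).

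Genes with the pattern over the 6 libraries most like that of Htr5b and of Htr2c were named among 13466 genes by Pearson's r of log2 CPM, as a description over 6 libraries that share the group difference. For Htr5b they were Klhdc3 (r = 0.997), Tceanc (0.996), Pi4ka (0.995), Gpd2 (0.993) and Fmn2 (0.992). In all 5 the n-Braf libraries lay above the controls, by differing amounts. Pi4ka, a lipid kinase, was at 278, 273 and 275 CPM in n-Braf, against 239, 244 and 253 CPM in the controls. Tceanc was at 1.502, 1.42 and 1.600 CPM in n-Braf, against 0.783, 0.785 and 0.934 CPM in the controls. For Htr2c they were Kctd12b (r = 0.991), Pcnx4 (0.989), Vkorc1 (0.988) and Tuba1c (0.983). Tuba1c, an alpha tubulin gene, was at 1.47, 3.05 and 1.57 CPM in n-Braf, against 7.98, 5.05 and 1.67 CPM in the controls, and it has near-identical relatives among which reads can be divided. In these 4, as in Htr2c, controls 1 and 2 were the 2 highest libraries.

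In the authors' deposited table, made from the same counts, Htr5b had a log2 fold change of 0.95 and Htr2c of -0.75. In the authors' deposited table the other 7 receptor genes lay between -0.20 and 0.20 on the log2 scale.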

How the data were processed

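Per the labels' protocols, each library was made from 10.0 ng of column-purified hippocampal RNA with a strand-specific SMART-Seq kit. Per the submitters' processing notes, bcl2fastq 2.20, fastp 0.20.1, STAR, RSEM and edgeR 3.36.0 were used with the build mm10. For strand setting and annotation, nothing is given in the sources used here. In the table deposited by the authors are expected counts per gene, with between 26.2% and 31.4% of values per library not whole, beside the authors' log2 fold change and p-value of each gene. Genes with few counts had been removed, since the third highest count was at least 8.75 in each gene.

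Expected counts were rounded. Genes passing filterByExpr (minimum count 10) in edgeR 4.0.16 were TMM-scaled and tested by quasi-likelihood in R 4.3.3, with group as the only term, Benjamini-Hochberg adjustment over 20604 genes and a threshold of 0.05. SE is a standard error, and log2 CPM used a prior count of 2. Positive values mean higher in n-Braf. DESeq2 1.42.0 and limma 3.58.1 served as alternatives, with other scalings, filters, covariates and left-out libraries. On counts simulated for this comparison over 20604 genes, the test recovered 54% of genes changed by a fold of 1.5, 76% at 2, 98% at 4 and 100% at 8, and called 4 unchanged genes. The simulation gave each gene the spread typical of its level and changed only genes above a minimum level. It held no libraries that stood apart, as controls 1 and 2 did. The shares can therefore overstate what the test finds in the real libraries. Positions, lengths and transcript sequences are those of GENCODE M21 on GRCm38, which matched 20110 of the gene IDs tested.

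The members and gene lists were chosen with earlier results of these data known. All members, other serotonin receptors and serotonin metabolism genes are named. For other lists the rule takes the first 2 genes and the 2 with the smallest p, and for the marker lists only some of these are given. Gene likeness was computed over genes with a mean of at least 1 CPM, naming the 5 genes most like each receptor, of which 1 for Htr2c is not reported here.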

Additional observations from a re-analysis of the deposited data

How the results depend on the processing

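Over 21 alternatives 0 of the 7 receptor genes other than Htr5b and Htr2c passed the threshold. Over all genes, where the test called 0, DESeq2 called 79, edgeR's exact test 66, robust quasi-likelihood 5, the fit without controls 1 and 2 called 3, a threshold of 0.1 called 2 and quasi-likelihood without legacy settings, added after seeing the data, called 1, while leaving out 1 library called 0 to 82, the highest without control 3. Htr1a and Htr5a kept their signs throughout. Htr5b did too, from 0.72 with the choroid plexus mean as a covariate to 1.06 without control 3. These fits reuse the Htr5b counts by which the gene was picked, so nothing is read from its constant sign. Htr2c was -0.42 without control 1 and -1.04 without control 3, and it reversed with the choroid plexus mean as a covariate (0.26) and without controls 1 and 2 (0.13). With that covariate Htr1b (-0.19) and Htr3a (0.0058) reversed as well, and without controls 1 and 2 Htr1b (-0.16) and Htr4 (0.025) did. The cause was not tested. With age as a covariate Htr5b was 1.02, Htr2c -0.71, Htr1b 0.18, Htr2a 0.15 and Htr3a -0.12, and Htr5a (0.46), Htr7 (0.68) and Htr4 (-0.28) moved away from 0 while Htr1a (-0.037) moved towards it. Leaving out 1 library moved Htr1b over -0.16 to 0.14, Htr2a over -0.086 to 0.16, Htr4 over -0.24 to 0.081 and Htr7 over -0.20 to 0.41, so these signs are not fixed by the data. Same-numbered libraries did not deviate together (correlations 0.10, -0.046 and -0.014), and with the replicate number as a block Htr5b was 0.95 and Htr2c -0.68. Htr5b, Htr3a and Htr7, with 43 to 231 counts per library, have the fewest counts of the 9.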
